A study of Homo sapiens with 6 samples.

Results

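The 10 genes described here handle iron and copper in liver cells, and all 10 were found by symbol among the 23368 genes of the deposited table. They are transferrin (TF), the transferrin receptors TFRC and TFR2, hepcidin (HAMP), the ferritin chains FTH1 and FTL, ferroportin (SLC40A1), HFE, ceruloplasmin (CP) and the copper pump ATP7B. Messenger RNA was measured by sequencing in HepG2, a long-cultured cell line from a human liver tumour that still makes many plasma proteins of hepatocytes. The shCHROME cells (3 libraries, replicates a, b and c) carried a lentiviral short hairpin RNA against CHROME, a long noncoding RNA, in the pLKO vector. The EV cells (3 libraries, replicates a, b and c) carried a non-targeting hairpin in the same vector, so both groups had been transduced. Virus for both came from HEK293T packaging cells. The labels call the hairpins stable and aimed at all variants of CHROME, and the shCHROME libraries carry the name of 1 hairpin (SH3). Whether replicates are separate cultures is not stated, so the p-values rest on a spread between libraries that may be technical. CHROME itself was not analysed here, so no measured extent of the knockdown stands beside these results. Recovered reads per library ran from 29477352 to 33911426 in shCHROME and from 29188213 to 35429420 in EV.

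Iron travels in plasma bound to transferrin and enters cells through TFRC, while TFR2 and HFE sense it at the hepatocyte surface. Hepatocytes answer with hepcidin, a peptide hormone that removes ferroportin, the cells' iron exporter, from the membrane, and they store spare iron in ferritin. Inside the cell, iron regulatory proteins bind stem-loops called iron responsive elements: bound in a 5' untranslated region they block translation, and bound in the 3' region of TFRC they protect the messenger from decay. Ceruloplasmin is a copper-carrying ferroxidase, and ATP7B loads it with copper and sends copper into bile.

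The stem-loops are shown because 4 of the 10 genes are known to be controlled through them. GENCODE 29 transcripts were searched for a C, 5 bases, CAGTG, then A, C or T, and 5 further bases. These last 5 all had to pair with the first 5, counting G with T as a pair. Each site is given 5' to 3' as DNA letters, 29 bases long, with the 6-base loop in capitals.
FTH1, 5' region: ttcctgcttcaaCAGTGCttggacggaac
FTL, 5' region: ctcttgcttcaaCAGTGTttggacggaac
SLC40A1, 5' region: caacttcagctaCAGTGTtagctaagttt
TFRC, 3' region: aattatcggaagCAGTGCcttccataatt
TFRC, 3' region: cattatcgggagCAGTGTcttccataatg
TFRC, 3' region: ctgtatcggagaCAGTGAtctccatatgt
TFRC, 3' region: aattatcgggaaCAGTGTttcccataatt
Such a site was found in an untranslated region of 123 of 19666 protein-coding genes scanned (0.625%). The 2 ferritin sites share most of their letters, and TFRC holds 4 sites. TF also holds 1 match, in the very long 3' region that its transcript has in that annotation, and none of the 107 companion genes scanned holds one. A match describes letters and not binding. The rule asks for all 5 pairs, so an element with a mismatch or bulge in that stem is missed. A gene without a match, among the 10 or the companions, may therefore still hold an element, and TFRC may hold more than 4.

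One of the 10 genes passed the test. TF was 1.18-fold lower in shCHROME cells, and the other 9 had adjusted p between 0.163 and 0.957 with fold changes of at most 1.28-fold. Over all 14598 genes tested, 10.5% were called at an adjusted p under 0.05 (limma, Benjamini-Hochberg), 6.87% lower and 3.64% higher, so 1 of 10 is near the share over all genes. The median log2 fold change of the 10 was -0.05, against 0.01 over all genes tested. Of all genes, 1003 were lower and 532 higher, or 702 lower and 936 higher when libraries were scaled to their totals. In simulated libraries the same step called 14.3% of 49 genes changed 1.2-fold and 71.4% of 49 changed 1.5-fold. Only 200 genes, drawn from all levels, were changed there, and 146 calls were made, against 1535 in the real libraries. The adjusted threshold was therefore stricter in the simulation, and these shares do not give the power of the test for the 10 genes. Small changes may still be missed.

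**Figure D1:**
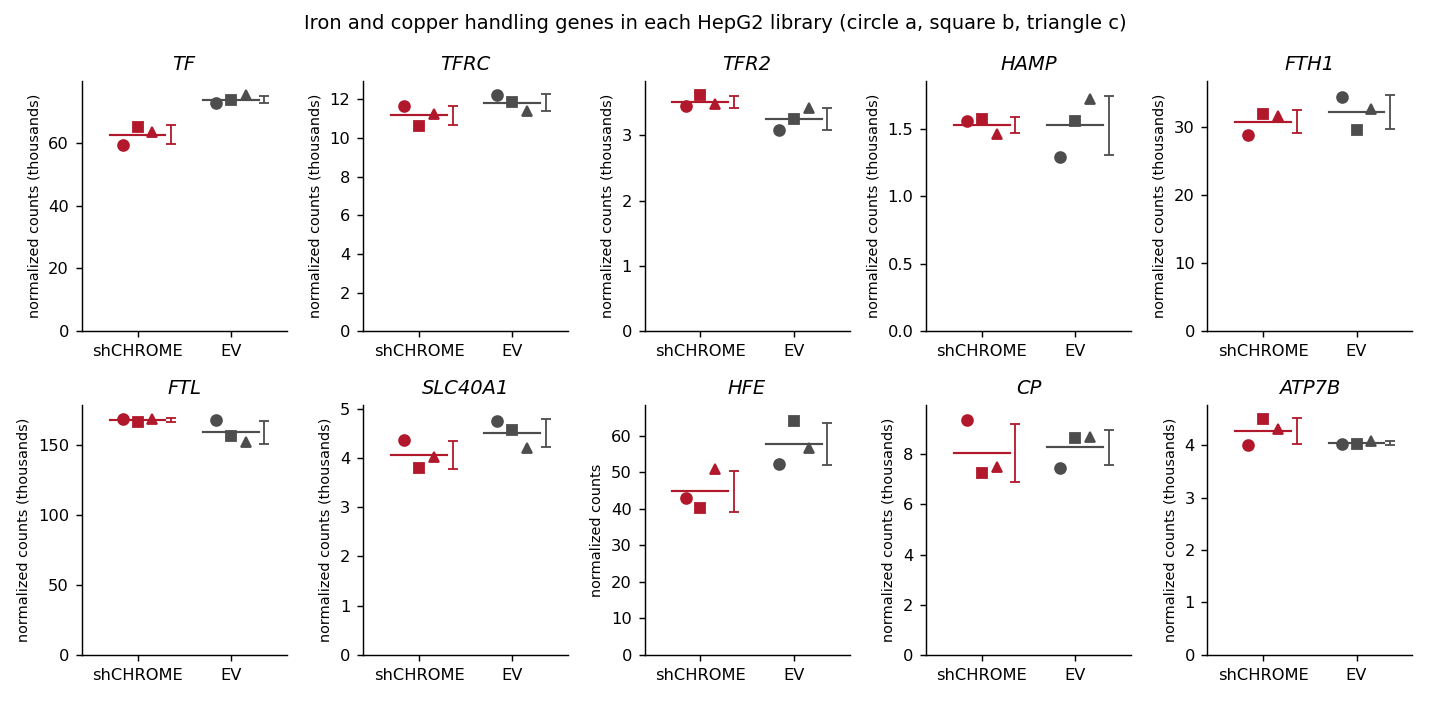
Normalized counts (vertical axis, from 0, in the scale each panel states) of the 10 genes in each shCHROME (red) and EV (grey) library, with the mean as a line and the SD as a bar (n = 3 each). The 3 shCHROME values of TF lie below its 3 EV values, whereas most other genes overlap between the groups.

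TF encodes transferrin, the plasma iron carrier. It had 59272, 65143 and 63479 normalized counts in shCHROME replicates a, b and c, against 72557, 73739 and 75094 in EV replicates a, b and c. Each shCHROME library was below each EV library, with replicate a the lowest. The mean fell to 62631 ± 3026 in shCHROME, against 73797 ± 1269 in EV (SD, n = 3 each), a log2 fold change of -0.24 (95% interval -0.36 to -0.11, limma adjusted p = 0.014). In the authors' deposited table the log2 fold change of TF was -0.225, with an adjusted p of 0.00251. The mean given there for TF was 59927, against 68214 over these 6 libraries. The authors' result may therefore rest on another set of libraries or another scaling, and the 2 adjusted p-values are not directly comparable. Leaving out shCHROME replicate c ended the call (adjusted p = 0.0573), as did leaving out EV replicate c (adjusted p = 0.0598), and the lowest adjusted p over 16 alternatives was 0.000604. In GENCODE 29 the TF gene overlaps SRPRB, a signal recognition particle receptor gene on the same strand, which was 1.15-fold lower (limma adjusted p = 0.0331), a call lost in 7 of 16 alternatives. Whether the 2 genes share reads was not tested.

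Of 10 hepatocyte markers, several of them plasma protein genes, 6 were called lower and 1 higher, against 6.87% and 3.64% of all genes tested. Their summed level was 1074918 to 1267278 normalized counts in the shCHROME libraries and 1342420 to 1462319 in the EV libraries. ALB (albumin), APOA1, TTR, SERPINA1, AFP and G6PC fell and TAT rose, while APOB (log2 fold change -0.04), FGB (0.16) and HNF4A (-0.03) did not pass the test. ALB was 1.25-fold lower, and its call was lost in 4 of 16 alternatives. The ratio of TF to ALB normalized counts, like the other ratios below not corrected for gene length, was 0.112, 0.114 and 0.0994 in shCHROME replicates a, b and c, against 0.102, 0.105 and 0.0995 in EV replicates a, b and c. The groups overlap in this ratio (2-sided exact permutation p = 0.4, adjusted p = 0.467 over 7 ratios). The part of the wider change in TF was not tested. In bulk libraries, fewer cells of a type and less RNA per cell cannot be told apart.

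Among the genes whose level followed TF most closely over the 6 libraries were UBA7 (Pearson r = 0.999) and NAALADL1 (r = 0.996). UBA7, which encodes the activating enzyme for the ubiquitin-like protein ISG15, averaged 203 ± 25.8 normalized counts in shCHROME and 309.9 ± 18.8 in EV (SD, n = 3 each). NAALADL1 averaged 695 ± 112 in shCHROME and 1316 ± 49.1 in EV. Of 11273 genes compared, 540 had an r over 0.9 with TF, so a high r is common across 6 libraries that fall into 2 groups.

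**Figure D2:**
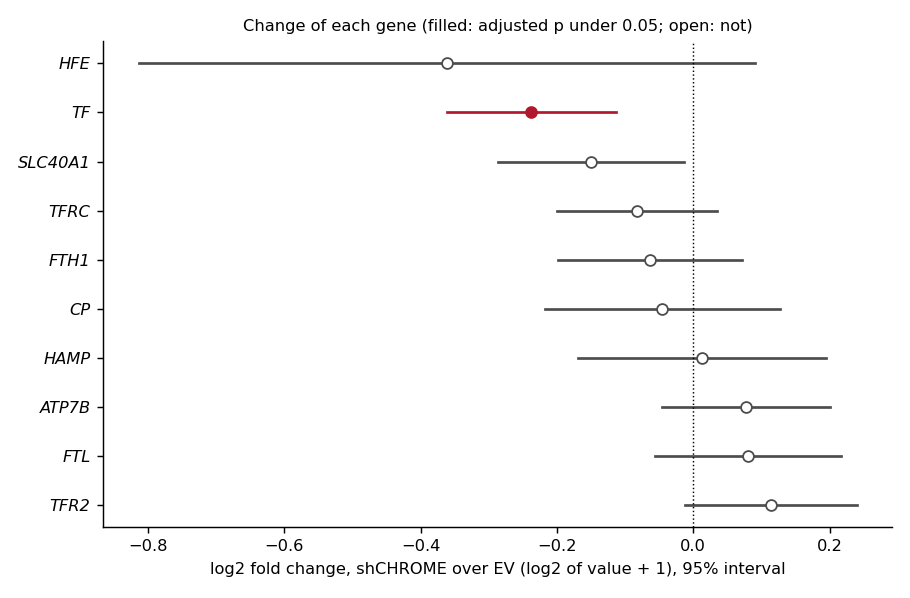
Log2 fold change of shCHROME over EV with its 95% interval from limma (horizontal axis) for each gene. TF is the filled point, at -0.24, and SLC40A1 is the other gene whose interval lies below 0, with an adjusted p of 0.163.

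The transferrin receptors did not pass the test. TFRC, which brings iron-loaded transferrin into the cell, had 11637, 10642 and 11225 normalized counts in shCHROME replicates a, b and c, against 12226, 11858 and 11382 in EV. The highest shCHROME value lies between the EV values, so the groups overlap. The log2 fold change of TFRC was -0.08 (95% interval -0.20 to 0.03, limma adjusted p = 0.401), or -12.9% to 2.41% as a change in percent.

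TFR2 is the second receptor, found mainly in hepatocytes and erythroid precursors, and takes part in sensing plasma iron. Its values were 3441, 3619.6 and 3471 normalized counts in shCHROME and 3081, 3246 and 3409 in EV. All 3 shCHROME libraries lie above the EV libraries, by little in the closest pair. The log2 fold change was 0.11 (95% interval -0.01 to 0.24, limma adjusted p = 0.255). The ratio of TFRC to TFR2 normalized counts was 3.19 ± 0.225 in shCHROME and 3.65 ± 0.315 in EV (SD, n = 3 each), with overlapping groups and an exact permutation p of 0.2 (adjusted p = 0.35).

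HFE, a relative of MHC class I proteins that binds both receptors and is altered in hereditary hemochromatosis, was the least abundant of the 10. It had 43.0, 40.3 and 51.0 normalized counts in shCHROME and 52.4, 64.0 and 56.8 in EV. The groups do not overlap, but only 133 reads in shCHROME and 174 in EV lie behind these values. The log2 fold change of HFE was -0.36 with a wide 95% interval of -0.81 to 0.09 (limma adjusted p = 0.326). Groups without overlap were found for 3 of the 10 genes, TF, HFE and TFR2, and for 28% of all genes tested. TF and HFE were the ones without overlap on the lower side, where the share over all genes is 15%, and TFR2 the one on the higher side, where it is 13%.

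Hepcidin is the hormone that sets how much iron enters the plasma, and its mean was close to equal in the groups. HAMP had 1557, 1570.5 and 1462 normalized counts in shCHROME, against 1292, 1562 and 1724 in EV. The shCHROME values sit close together inside the range of the EV values. Means were 1529.7 ± 59.4 in shCHROME and 1526 ± 218 in EV (SD, n = 3 each), and the log2 fold change was 0.01 (95% interval -0.17 to 0.195, limma adjusted p = 0.957). Its sign turned when shCHROME replicate a or b or EV replicate a was left out, and reached -0.10 without EV replicate a, within a range up to 0.11 when other libraries were left out.

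The HAMP promoter is shown because genes of BMP and IL-6 signalling, which are among its known inputs, were measured alongside it. The 250 bases before the RefSeq start of HAMP (GRCh38.p14, chr19:35282278-35282527, plus strand) are given with the matches in capitals.
HAMP: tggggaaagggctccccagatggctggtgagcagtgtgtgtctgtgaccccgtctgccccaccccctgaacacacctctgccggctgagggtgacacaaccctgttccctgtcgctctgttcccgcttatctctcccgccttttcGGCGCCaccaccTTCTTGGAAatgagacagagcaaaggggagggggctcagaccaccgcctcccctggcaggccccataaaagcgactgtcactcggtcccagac
Both strands were searched for GGCGCC, the letters of a known BMP-responsive element, and for TTCNNNGAA, those of a STAT element. Each occurs once, 105 to 100 and 93 to 85 bases before the start, without overlap. Of 22114 RefSeq genes with 1 start in the promoter table, 15.4% hold GGCGCC and 7.02% hold TTCNNNGAA in the same window. The table has such a window for 5 of the 10 genes, of which TFRC also holds GGCGCC. Of the BMP target genes described next, ID1, ATOH8 and SMAD6 have such a window, and it holds neither set of letters.

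The list of hepcidin control by BMP and SMAD held calls in both directions. Of 19 genes listed, 18 were found and 17 were tested. HFE2 was below the expression filter, with 3 reads in shCHROME and 5 in EV. Of the 17 tested, 2 were called lower (ATOH8 and ID1) and 1 higher (FURIN, a protease). Over all genes tested, 6.87% were lower and 3.64% higher. The median log2 fold change of the 17 was -0.03. ATOH8, a transcription factor gene known as a BMP target, had 276, 339 and 293 normalized counts in shCHROME, against 741, 563 and 711 in EV. Each shCHROME library lies far below the lowest EV library, and the log2 fold change was -1.14 (limma adjusted p = 4.11e-06). ID1, another BMP target, fell to 9147 ± 668 in shCHROME, against 11167 ± 1048 in EV (SD, n = 3 each, log2 fold change -0.29, limma adjusted p = 0.0115). Leaving out shCHROME replicate c ended the call of ID1 (adjusted p = 0.0827), as did leaving out EV replicate c (adjusted p = 0.0837), while its alternatives reached down to 0.00157. FURIN, the protease that trims the hepcidin precursor, rose 1.48-fold, to 2953 ± 178 in shCHROME, against 2007 ± 366 in EV.

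SMAD7 and SMAD6, inhibitory SMAD genes that BMP signals induce, were picked out after their values were seen. SMAD7 had 1084, 1059.7 and 1022 normalized counts in shCHROME and 1156, 1188 and 1262 in EV, without overlap and with an adjusted p of 0.107 (limma). SMAD6 had a log2 fold change of -0.05 (limma adjusted p = 0.848), which was 0.0004 with library totals and 0.04 without shCHROME replicate a.

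Within each library, the ratio of ATOH8 to HAMP normalized counts was 0.198 ± 0.0196 in shCHROME and 0.449 ± 0.111 in EV (SD, n = 3 each). The ratio of ID1 to HAMP normalized counts was 5.98 ± 0.383 in shCHROME and 7.36 ± 0.454 in EV. Neither ratio overlaps between the groups, and both have an exact permutation p of 0.1, the smallest that 3 against 3 libraries allow (adjusted p = 0.35 over 7 ratios, which were chosen after values were seen). No gene of the IL-6 and STAT3 list passed the test among 8. The members with the highest normalized counts, not corrected for length, were IL6ST, the shared receptor chain (log2 fold change -0.04), and STAT3 (0.03). Per kb of coding length CEBPA, a liver transcription factor gene, was highest, with 5566 ± 440.2 in shCHROME and 6285 ± 21.9 in EV (SD, n = 3 each). Picked out after its values were seen, it had no overlap between the groups and a log2 fold change of -0.18 (limma adjusted p = 0.0684, or 0.0108 without shCHROME replicate b, the lowest over its alternatives, and 0.227 as the highest). The sign of IL6ST turned with library totals or without shCHROME replicate b, and that of STAT3 without EV replicate b.

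**Figure D3:**
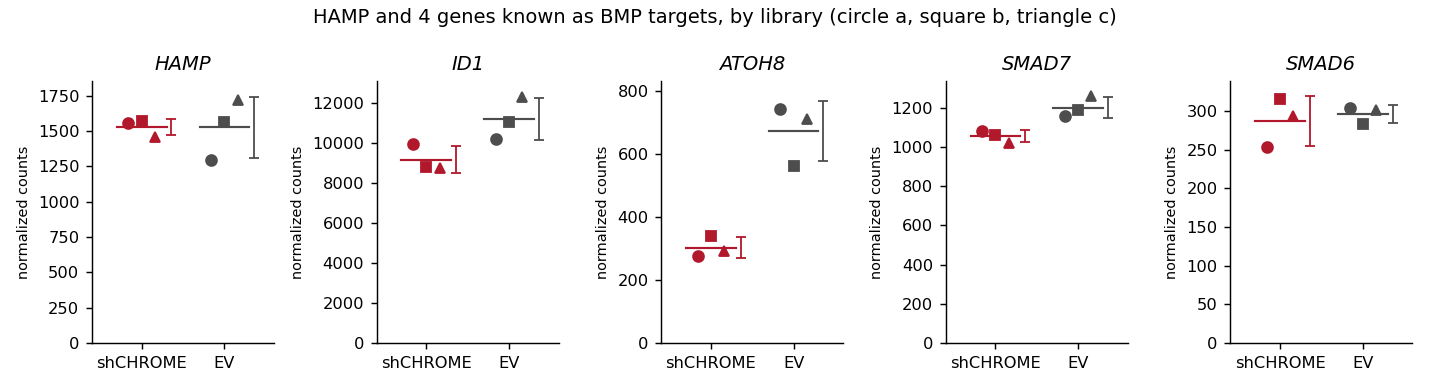
Normalized counts (vertical axis, from 0) of HAMP and 4 genes known as BMP targets in each shCHROME (red) and EV (grey) library, with the mean as a line and the SD as a bar (n = 3 each). ATOH8, ID1 and SMAD7 are lower in all 3 shCHROME libraries, of which SMAD7 did not pass the test. HAMP and SMAD6 overlap between the groups, HAMP at means of 1529.7 in shCHROME and 1526 in EV.

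Ferritin stores iron in a shell of heavy chains (FTH1), which oxidize iron, and light chains (FTL), which help it to mineralize. FTL was the most abundant of the 10, with 168657, 166403 and 168757 normalized counts in shCHROME, against 168158, 156470 and 152267 in EV. EV replicate a lies among the shCHROME values and the other EV libraries below them. Its log2 fold change was 0.08 (95% interval -0.06 to 0.22, limma adjusted p = 0.494).

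FTH1 had 28801, 31878 and 31471 normalized counts in shCHROME, against 34399, 29449 and 32544 in EV. The groups overlap, and the log2 fold change was -0.06 (95% interval -0.20 to 0.07, limma adjusted p = 0.603). Both chains have many processed copies in the genome, so shared reads make their values uncertain. The copies listed in the table were low, with FTH1P3 at 13.8 to 17.7 in shCHROME and 7.97 to 19.0 in EV. FTH1 also overlaps BEST1 on the other strand, a gene at 118 ± 18.1 in shCHROME and 132 ± 3.62 in EV. The ratio of FTL to FTH1 normalized counts was 5.86, 5.22 and 5.36 in shCHROME and 4.89, 5.31 and 4.68 in EV, an overlap with an exact permutation p of 0.2 (adjusted p = 0.35). The ratio of TFRC to FTH1 normalized counts was 0.365 ± 0.0358 in shCHROME and 0.369 ± 0.0291 in EV, with an exact permutation p of 1.

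The 3 genes that set binding to the stem-loops did not pass the test, and they were picked out after their values were seen. ACO1, iron regulatory protein 1, averaged 1419 ± 88.7 normalized counts in shCHROME and 1560.4 ± 39.2 in EV (log2 fold change -0.14, limma adjusted p = 0.231). IREB2, iron regulatory protein 2, averaged 4670.4 ± 257 in shCHROME and 4322 ± 252 in EV (log2 fold change 0.11, limma adjusted p = 0.286). FBXL5, which targets IREB2 for decay when iron is plentiful, had a log2 fold change of -0.05, or 0.0015 with library totals. In the same list ZFP36L1, an RNA-binding protein of the tristetraprolin family, rose 1.25-fold with a limma adjusted p just under 0.05, and its call was lost in 9 of 16 alternatives.

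Ferroportin, the only known iron exporter of mammalian cells, had the lowest adjusted p after TF. SLC40A1 had 4369, 3802 and 4029 normalized counts in shCHROME, against 4756, 4569 and 4205 in EV. The shCHROME values are mostly the lower ones, but replicate a lies above EV replicate c. The log2 fold change was -0.15 (95% interval -0.29 to -0.01, unadjusted p = 0.0338, adjusted p = 0.163, limma). Over the 16 alternatives its adjusted p ran from 0.0504 to 0.457 and its direction held. The ratio of SLC40A1 to HAMP normalized counts was 2.66 ± 0.21 in shCHROME and 3.01 ± 0.625 in EV, with overlapping groups (exact permutation p = 0.4, adjusted p = 0.467).

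Ceruloplasmin varied more within groups than between them. CP had 9374, 7265 and 7504.5 normalized counts in shCHROME, against 7467, 8657 and 8684.5 in EV. The highest and the lowest of the 6 values are both shCHROME libraries. The log2 fold change was -0.05 (95% interval -0.22 to 0.13, limma adjusted p = 0.800), and its sign turned with library totals and without shCHROME replicate b or c. CP overlaps HPS3 on the other strand, a gene at 741 ± 6.77 in shCHROME and 790.2 ± 59.6 in EV.

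ATP7B, the copper pump altered in Wilson disease, had 4006, 4496 and 4310.3 normalized counts in shCHROME, against 4032, 4020.1 and 4078 in EV. The EV values are nearly equal, and shCHROME replicate a lies just below them while the others lie above. Its log2 fold change was 0.08 (95% interval -0.05 to 0.20, limma adjusted p = 0.464).

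**Figure D4:**
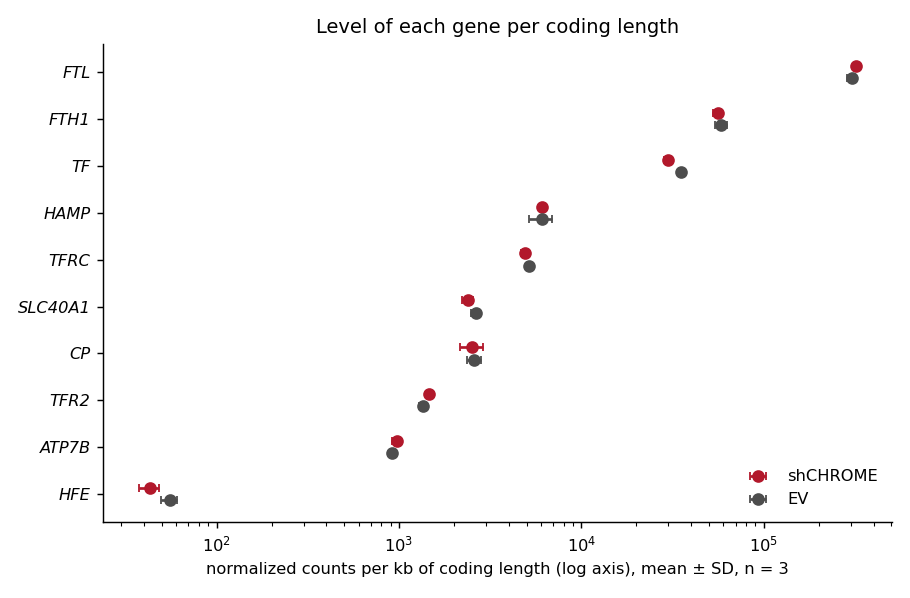
Normalized counts per kb of coding length (horizontal log axis; mean with SD, n = 3 each) for each gene in shCHROME (red) and EV (grey). FTL stands at 319883 in shCHROME and 302790 in EV, and HFE lies at the other end at 42.9 and 55.3 in the same order.

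Levels of different genes were compared per kb of coding length, which overstates genes with long untranslated regions. FTL came first, with 319883 ± 2536 in shCHROME and 302790 ± 15684 in EV (SD, n = 3 each). FTH1 followed with 55950 ± 3045 in shCHROME and 58526 ± 4555 in EV, and TF with 29909.8 ± 1445 in shCHROME and 35242 ± 606 in EV. HAMP stood at 6070.2 ± 236 in shCHROME and 6055 ± 865 in EV, and TFRC at 4898 ± 219 in shCHROME and 5185 ± 186 in EV. HAMP and TFRC differ in EV by about the SD of HAMP. CP (2519 ± 361 in shCHROME, 2588 ± 218 in EV) and SLC40A1 (2374 ± 167 in shCHROME, 2633 ± 164 in EV) differ from each other by less than their spread. TFR2, ATP7B and HFE closed the order, with 1461 ± 39.8, 972 ± 56.3 and 42.9 ± 5.34 in shCHROME and 1350.5 ± 68.4, 920.0 ± 7.02 and 55.3 ± 5.60 in EV.

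Around the 10 genes, 98 of 109 companion genes in 11 lists passed the expression filter. Of these 98 genes, 12 fell and 3 rose, which is 15.3% called against 10.5% over all genes. The median log2 fold change was -0.04. Most lists are short, so a single call moves the share of a list by much. Without shCHROME replicate c 5 genes were called lower, and without EV replicate c 6, so the count of 12 rests in part on these libraries.

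**Figure D5:**
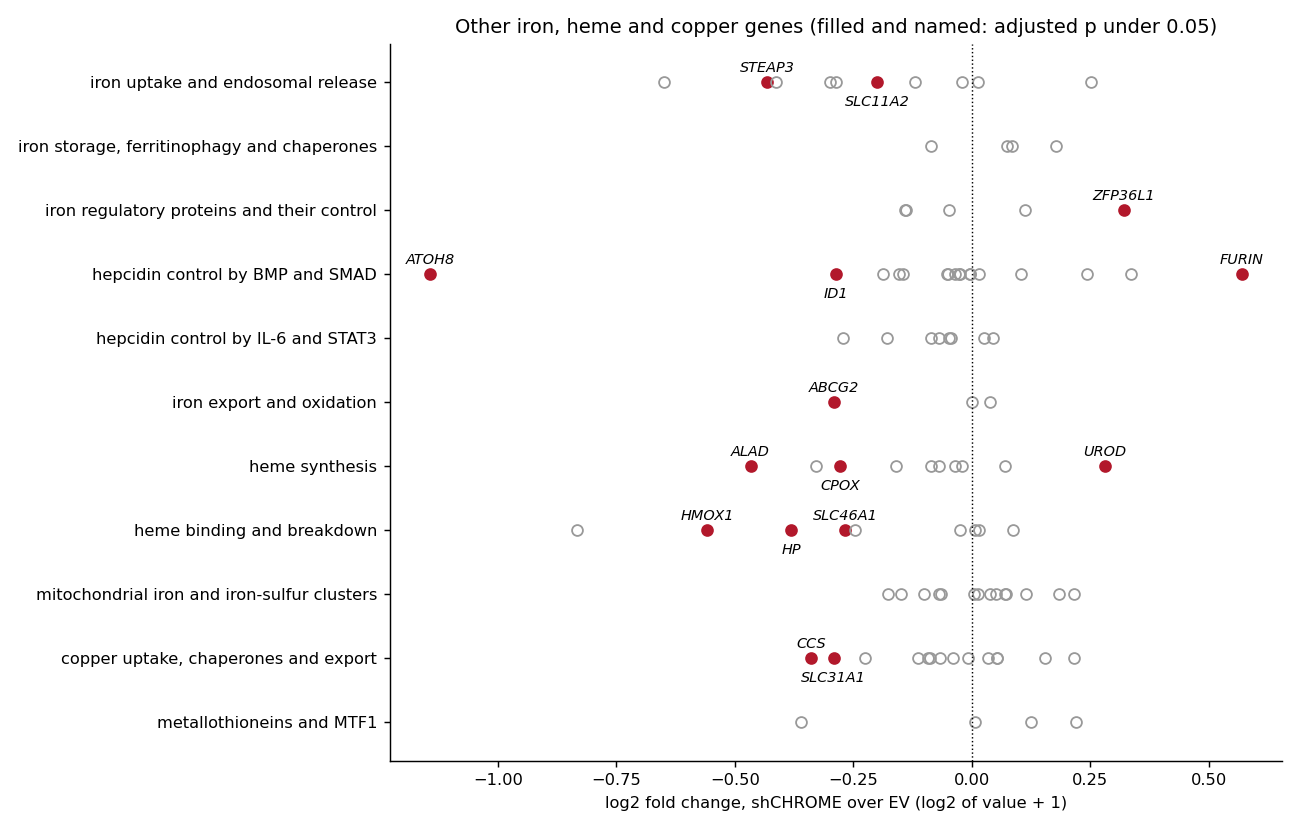
Log2 fold change of shCHROME over EV (horizontal axis) for each companion gene that was tested, by list. Filled, named points passed an adjusted p under 0.05 (12 lower, 3 higher), and ATOH8 lies farthest from 0 among them at -1.14.

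In iron uptake, 2 of 10 tested genes fell, against 6.87% of all genes tested, and the median log2 fold change of the 10 was -0.24. STEAP3, the endosomal ferrireductase that acts after transferrin uptake, had 1268, 1472 and 1465 normalized counts in shCHROME, against 2049, 1809.9 and 1808 in EV. The groups do not overlap, and STEAP3 fell 1.35-fold (limma adjusted p = 0.0012), a call kept in all 16 alternatives. SLC11A2, which carries ferrous iron out of the endosome, fell 1.15-fold, to 4406 ± 97.9 in shCHROME, against 5057 ± 67.0 in EV. Its limma adjusted p was 0.0242, and the call was lost in 6 of 16 alternatives.

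Among the copper genes, 2 of 14 tested fell, against 6.87% of all genes tested. SLC31A1, the high-affinity copper importer, had 4726, 5014 and 5064 normalized counts in shCHROME, against 6052, 5915 and 6147 in EV. All shCHROME libraries are lower, and SLC31A1 fell 1.22-fold (limma adjusted p = 0.00214), a call kept in all 16 alternatives. CCS, the copper chaperone for superoxide dismutase, fell 1.27-fold, to 397 ± 12.5 in shCHROME, against 503 ± 41.9 in EV, and its call was lost in 6 of 16 alternatives. The other 12 of 14 copper genes tested did not pass the test.

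Heme is one use of cellular iron, and 3 of its 10 synthesis genes were called, against 10.5% of all genes tested. ALAD, the second enzyme of the pathway, fell 1.38-fold, to 1330 ± 103 in shCHROME, against 1838 ± 146 in EV (SD, n = 3 each, limma adjusted p = 0.000653), a call kept in all 16 alternatives. CPOX, a mitochondrial enzyme late in the pathway, fell 1.21-fold, a call lost in 6 of 16 alternatives. UROD, which acts between them, rose 1.22-fold, to 3227 ± 153 in shCHROME, against 2655 ± 127 in EV (limma adjusted p = 0.00669).

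On the side of heme breakdown and binding, 3 of 9 genes fell and none rose, against 6.87% and 3.64% of all genes tested. The median log2 fold change of the 9 was -0.25. HMOX1, the inducible heme oxygenase that frees iron from heme, had 356, 399 and 414 normalized counts in shCHROME, against 528.5, 637 and 558 in EV. The groups do not overlap, and HMOX1 fell 1.47-fold (limma adjusted p = 0.00138), a call kept in all 16 alternatives. HP, which encodes the hemoglobin-binding protein haptoglobin, fell 1.30-fold, and leaving out shCHROME replicate c ended its call (adjusted p = 0.0577, within a range over alternatives that starts at 0.000551). SLC46A1, a folate carrier that also moves heme, fell to 1522 ± 40.7 in shCHROME, against 1832 ± 38.9 in EV, a call lost without shCHROME replicate c or EV replicate c. In iron export and oxidation 1 of 3 fell, where the share over all genes tested was 6.87%. This gene, ABCG2, an exporter of porphyrins and drugs, was 1.22-fold lower, with its call lost in 6 of 16 alternatives.

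The lists of iron storage, IL-6 signalling, mitochondrial iron and metallothioneins had no call, where 10.5% of all genes tested were called. In storage the genes with the highest normalized counts among 4 tested were NCOA4, which delivers ferritin to the lysosome (log2 fold change -0.09, limma adjusted p = 0.409), and PCBP2, an iron chaperone (0.18, limma adjusted p = 0.435), whose sign turned without EV replicate b. Among 14 genes of mitochondrial iron and iron-sulfur clusters, HSPA9, a chaperone, and ISCU, the cluster scaffold, had the highest mean normalized counts over the 6 libraries, both with a log2 fold change of 0.01. Per kb of coding length GLRX5, a glutaredoxin of cluster transfer, was at 5443 ± 238 in shCHROME and 5179 ± 166 in EV. ISCU was close to it, at 5075 ± 395 in shCHROME and 5047 ± 188 in EV. Per kb of transcript the order reversed, with ISCU at 2558 in shCHROME and 2544 in EV, against 1639 and 1560 for GLRX5. The log2 fold change of GLRX5 was 0.07 (limma adjusted p = 0.531). The signs of HSPA9 and ISCU turned without shCHROME replicate a or EV replicate a, and that of ISCU also without shCHROME replicate c. The metallothioneins, small proteins that bind copper and zinc, were low: 6 of the 10 genes in the list were below the filter, of which 3 were at 0 in all libraries. MT2A averaged 137 ± 23.2 normalized counts in shCHROME and 119 ± 25.5 in EV (SD, n = 3 each), and MTF1, the zinc-sensing factor that drives metallothionein genes, 674 ± 5.16 in shCHROME and 620.1 ± 59.9 in EV.

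Markers of macrophages and erythroid cells were low, and those of other lists were in part measurable. The summed level of 8 macrophage markers was 350.3 to 462 normalized counts in shCHROME and 316 to 489.9 in EV, with C1QA and VSIG4 at 0. That of 8 erythroid markers was at most 17.8 in any library, with 4 genes at 0. Liver endothelial markers summed to 951 to 1037 in shCHROME and 1071 to 1122 in EV, and stellate cell markers to 1604 to 1914 in shCHROME and 1741 to 1941 in EV. Kidney and packaging cell markers summed to 3316 to 3490 in shCHROME and 3718 to 3964 in EV, with NEFL and NEFM at 0. Among these lists PDGFRB, of the stellate list, and CDH2, of the kidney and packaging cell list, fell. PDGFRB averaged 189 ± 37.8 normalized counts in shCHROME and 373.7 ± 66.1 in EV (SD, n = 3 each). Its log2 fold change was -0.98 (limma adjusted p = 0.000257). CDH2 averaged 2672 normalized counts in shCHROME and 3130 in EV, ACTA2 of the stellate list 1414 in shCHROME and 1298 in EV, and VWF of the endothelial list 917 in shCHROME and 1025 in EV. HepG2 is a cultured cell line, so the level of a marker here need not come from the cell type it is listed for. Where these reads came from was not tested.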

How the data were processed

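Total RNA of 6 HepG2 libraries was sequenced in pairs after TruSeq preparation, per the labels' protocols. Groups came from the titles. The submitters' processing notes name the build hg19 and the tools STAR 2.5, DESeq2 (listed as 3.4) and featureCounts 1.5.2, and the strand setting and annotation are not given in the sources used here. The authors deposited normalized counts, a signal of reads divided by a size factor, together with their own p-value (raw and adjusted) and log2 fold change per gene.

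Of 24656 entries, 1288 repeats were dropped and 28 symbols stored as dates were restored. Reads were recovered as whole multiples of each library's smallest value, and 100.0% of values came out whole within 0.01 read. In EV replicate c the step, 0.995698, is near 1, and it was taken as the smallest value as in the other libraries. On those reads edgeR's quasi-likelihood test called 538 genes higher and 1015 lower. Genes kept by filterByExpr on those reads (edgeR 4.0.16) were tested on log2(value + 1) with limma 3.58.1 in R 4.3.3, with Benjamini-Hochberg adjustment over all 14598 genes and a threshold of 0.05. A fold change on that scale understates the change of low genes. The step was tested on simulated data, where 11 of 146 calls fell on genes without a change. Other scalings, filters and pseudocounts, edgeR and DESeq2 1.42.0 on the reads, the replicate block and dropping each library in turn gave 16 alternatives.

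The members and lists were chosen with earlier results of these data known. All 10 members were named, with each companion gene that was called, the 2 genes with the highest mean normalized counts of lists without a call, and the 3 genes most correlated with TF, of which 1 is not reported here. Ratios were compared by 2-sided exact permutation tests. Promoters came from RefSeq (GRCh38.p14), and transcripts, coding lengths and overlaps from GENCODE 29, and none of its coordinates were joined to the hg19 table.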

Additional observations from a re-analysis of the deposited data

How the results depend on the processing

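Scaling to library totals gave 936 genes higher instead of 532, and 5 companion genes higher instead of 3. This scaling moves nearly every gene up by a like amount, so genes just below 0 change sign by construction: among the genes named here the values became 0.0044 for CP, 0.0059 for IL6ST, 0.0004 for SMAD6 and 0.0015 for FBXL5. The median of all genes was 0.058 on the log2 scale with library totals and 0.009 with the deposited scaling.

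Leaving out 1 library at a time gave 245 to 528 genes higher and 599 to 1051 lower, 0 to 1 of the 10 genes lower, 2 to 3 companion genes higher and 5 to 13 lower. The lowest counts came without shCHROME replicate c. Without 1 library the log2 fold change ran from -0.1019 to 0.1057 for HAMP, -0.1599 to 0.0239 for CP, -0.0393 to 0.0653 for HSPA9 and -0.0394 to 0.0699 for ISCU. It ran from -0.1205 to 0.0398 for SMAD6, -0.0755 to 0.0154 for IL6ST, -0.0284 to 0.3102 for PCBP2 and -0.0004 to 0.046 for STAT3, so these 8 signs are not settled.

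With the replicate letter as a block, 349 genes were higher and 764 lower, TF stayed the 1 called gene of the 10 (limma adjusted p = 0.0432), and 2 companion genes were higher and 8 lower. Deviations of same-letter libraries correlated at -0.082, -0.192 and 0.041, and shCHROME replicate a correlated best with EV replicate b, so the letters were not taken as pairs. The edgeR and DESeq2 tests each called 1 of the 10 genes, lower. Depth limits HFE most, with 133 reads in shCHROME and 174 in EV, and 3 libraries a group limit changes of the size of TF's.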
